A study of Mus musculus with 12 samples.

Results

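Dusp1, Dusp4, Dusp5, Dusp6, Dusp7, Dusp8, Dusp10 and Dusp16 encode dual-specificity phosphatases that switch off MAP kinases. The 8 genes were taken by symbol from the 22180 genes of the deposited array table, and all 8 passed the filter on dim signals, as did 13747 genes in all. RNA came from the plantaris, a calf muscle, of male mice aged 12 weeks from which food had been withheld for 3 hours. Of the 12 arrays, 3 came from wild-type mice kept sedentary, 3 from wild-type mice sampled 1 hour after 1 session of aerobic exercise, and 3 each from REDD1 knockout mice treated in these same ways. REDD1, encoded by Ddit4, is a stress-induced inhibitor of the growth-promoting kinase complex mTORC1. How the knockout was made, its background strain and the part of the gene removed are not given in the sources used here.

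MAP kinases are activated by phosphorylation of a threonine and a tyrosine in the same loop, and these phosphatases remove both phosphates. Dusp1, Dusp4 and Dusp5 encode nuclear enzymes and are classically induced by growth factors or stress, often as immediate-early genes. Dusp6 and Dusp7 encode cytoplasmic enzymes that act mainly on ERK, whose own activity induces Dusp6 as a feedback brake. The products of Dusp8, Dusp10 and Dusp16 act mainly on the stress kinases JNK and p38. Muscle contraction activates ERK, JNK and p38.

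The sequences shown here are parts of the start regions of Dusp1, Dusp5 and Dusp8 with a CRE or a CArG box, motifs through which stimulus-responsive factors are known to act, together with that of Dusp10, the gene whose group means lay farthest apart. They are from RefSeq on the GRCm38.p6 build, in windows of 250 bases before to 50 after an annotated start, which were found for 7 of the 8 genes and not for Dusp4. Capitals mark matches to the CRE (TGACGTCA) or its core (TGACG), the CArG box or the E-box (CACGTG), searched on both strands; each CRE also holds the core. No capitals appear in Dusp10 because none of these motifs matched there.

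Dusp1, chr17:26508578-26508678, minus strand: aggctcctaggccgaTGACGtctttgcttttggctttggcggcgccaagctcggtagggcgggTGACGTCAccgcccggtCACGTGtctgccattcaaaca

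Dusp5, chr19:53529048-53529109, plus strand: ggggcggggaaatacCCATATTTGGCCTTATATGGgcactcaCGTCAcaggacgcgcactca

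Dusp8, chr7:142095373-142095402, minus strand: gcccgctccgcTGACGTCAcctgcccccga

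Dusp8, chr7:142095329-142095358, minus strand: ttggctgcaggTGACGTCAggggctttttc

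Dusp10, chr1:184034281-184034380, plus strand: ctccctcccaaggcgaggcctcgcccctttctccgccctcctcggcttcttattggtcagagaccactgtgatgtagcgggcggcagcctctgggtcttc

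The CRE, bound by CREB-family factors, was found in the windows of Dusp1 and Dusp8, and in 1.79% of all 32851 windows. It lay at -143 to -136 from the start of Dusp1 and at -107 to -100 and -63 to -56 in Dusp8. The core was found in Dusp1, Dusp5, Dusp8 and Dusp16, and in 20.8% of all windows. The CArG box, bound by serum response factor, occurred in Dusp5 at -82 to -73 and again at -72 to -63, and in 1.63% of all windows. The E-box occurred in Dusp1 at -126 to -121 and in 7.15% of all windows. The AP-1 site (TGANTCA) occurred in none of the 7 windows and in 7.81% of all windows. The windows were rich in G and C, from 57.3% in Dusp6 to 78.7% in Dusp7, beside a median of 52.7% over all windows. The annotated starts used for Dusp7, Dusp8 and Dusp16 lie 72, 623 and 14435 bases inside the gene's record, so they are not its outermost start. A match describes these letters and not a bound site.

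**Figure D1:**
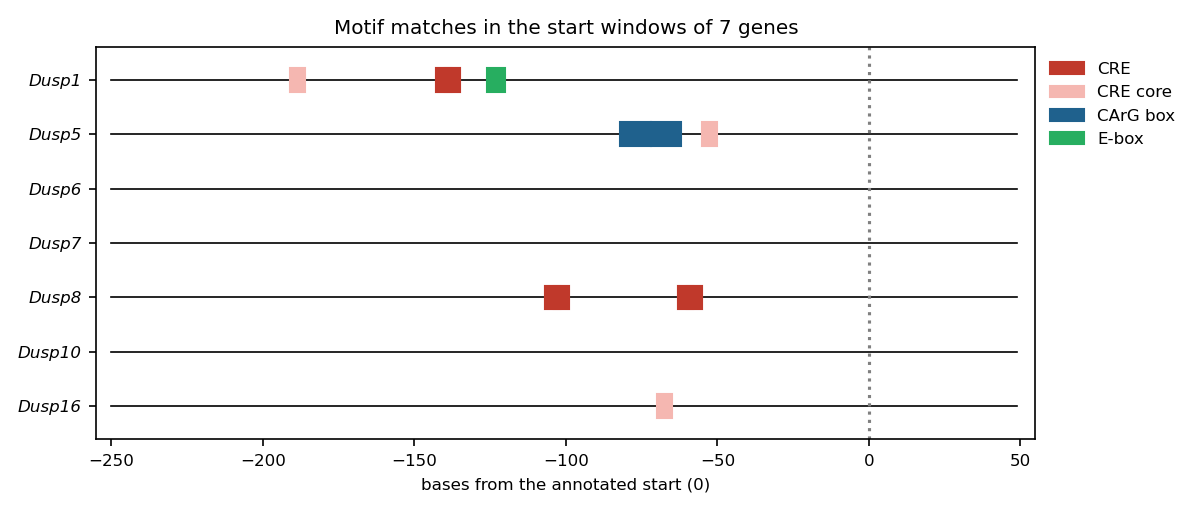
Position of motif matches in the start windows of 7 genes; the horizontal axis gives bases from the annotated start, and each coloured block spans 1 match. Matches lie in Dusp1, Dusp5, Dusp8 and Dusp16, and the windows of Dusp6, Dusp7 and Dusp10 hold none.

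Expression is given as the deposited log2 value, and a difference as a log2 fold change beside its limma standard error (SE). Calls required an adjusted p below 0.05, with Benjamini-Hochberg adjustment over all 13747 genes. Pearson's r between arrays ranged from 0.967 to 0.985. Levels of 15 of 15 fixed skeletal muscle genes passed the filter, and their mean differed from the 12-array mean by -0.04 to 0.04 on every array. At rest, Ddit4 read 6.13, 5.83 and 6.02 in wild-type mice against 5.32, 5.44 and 5.08 in knockout mice. After exercise it read 9.05, 8.40 and 8.62 against 6.46, 5.72 and 6.77. It was thus lower in the arrays labelled knockout in both conditions, without overlap. Limma gave wild-type exercised replicate 1 the lowest weight of all arrays, 0.366. Fibroblast and matrix genes stood high in knockout sedentary replicate 3, at 0.86 above their 12-array mean, while its group's other arrays were at -0.16 and 0.11. The labels do not say whether replicates came from separate litters or days, so p-values measure the spread between these samples.

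None of the 8 phosphatase genes was called in any of the 7 comparisons. The lowest adjusted p of any of them was 0.17, for Dusp10 with exercise averaged over genotypes (limma). In that comparison 220 genes were called, 1.6% of those tested. Without adjustment, limma gave p under 0.05 to 2 of the 8, Dusp6 and Dusp10, both lower after exercise, and to 11.2% of all genes. The median log2 fold change of the 8 genes was -0.03, and that of all genes -0.01. Ordinary analysis of variance in place of limma's moderated test also called 0 of the 8, but it called only 67 of all 13747 genes for averaged exercise.

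**Figure D2:**
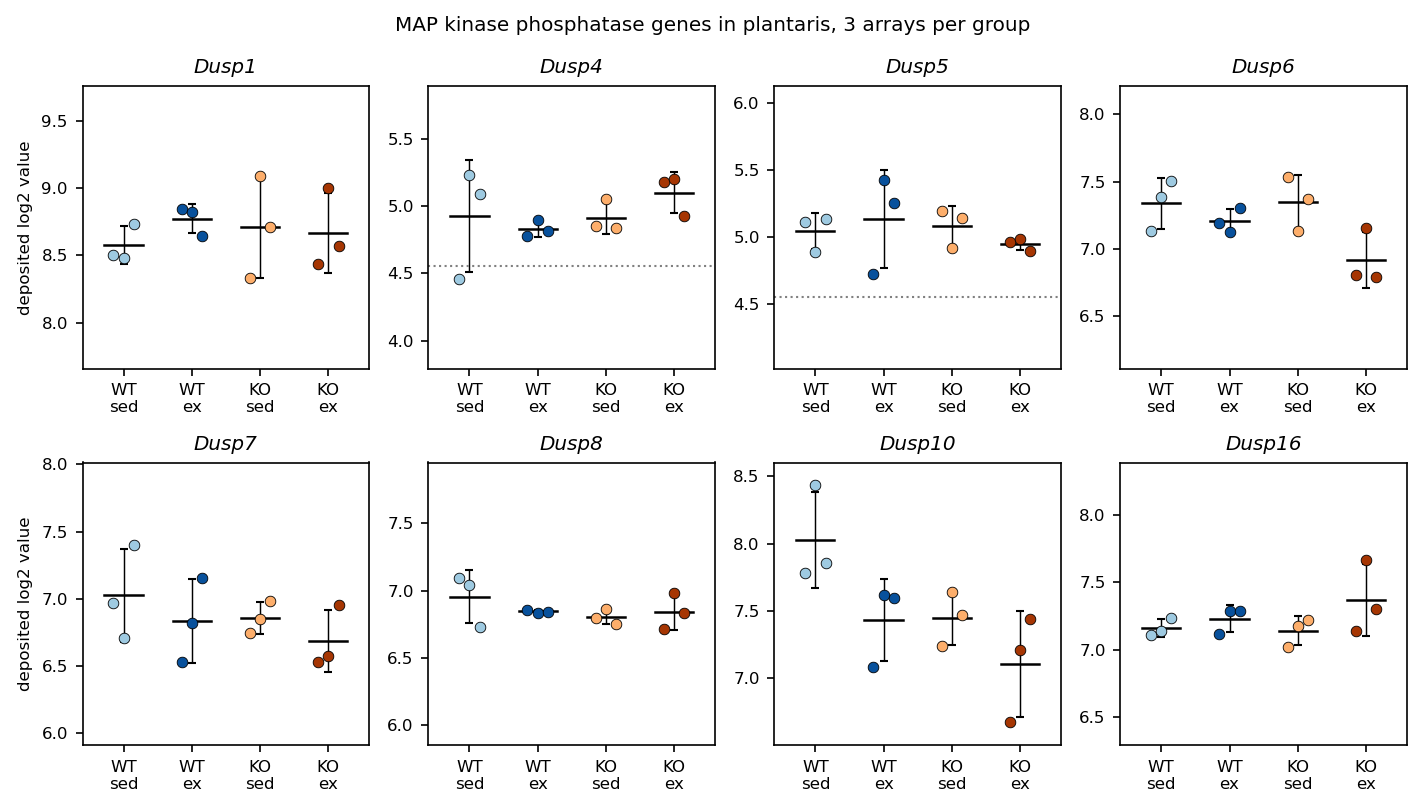
Deposited log2 value of each of the 8 genes on every array (points), by group, with the group mean (bar) and SD (whisker), n = 3 arrays; each panel has its own range, WT is wild type, KO knockout, sed sedentary and ex exercised, and the dotted line is the median of the whole table, 4.56. Dusp10 is highest in wild-type sedentary muscle without overlap with wild-type exercised or knockout sedentary arrays, and for most other genes the groups overlap.

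Of the nuclear, inducible class, Dusp1 encodes the phosphatase that is the usual immediate-early member in many tissues. Wild-type arrays read 8.51, 8.48 and 8.74 at rest and 8.85, 8.82 and 8.65 after exercise. Knockout arrays read 8.33, 9.09 and 8.71 at rest and 8.43, 8.9999 and 8.57 after exercise. The groups overlapped in both genotypes, and the knockout arrays were spread more widely, with SDs of 0.38 and 0.30 beside 0.14 and 0.11 in wild type. After exercise Dusp1 differed by 0.20 in wild type (SE 0.17, limma adjusted p = 0.865) and by -0.04 in the knockout (adjusted p = 0.970). The 95% interval in wild type ran from -0.17 to 0.56, a fold of 0.890 to 1.48. An induction above that upper bound thus lay outside the interval at this hour, as did a decrease beyond -0.17, and changes between these bounds lay within it.

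Dusp4 encodes a nuclear phosphatase of ERK, JNK and p38. Its levels were near the table median of 4.56, which it exceeded on 11 of 12 arrays. Wild-type arrays read 4.46, 5.23 and 5.09 at rest and 4.78, 4.90 and 4.82 after exercise, and knockout arrays 4.85, 5.05 and 4.84, then 5.18, 5.20 and 4.93. The 3 knockout exercised arrays were all above the 3 wild-type exercised ones, by 0.27 on average (SE 0.17, 95% interval -0.10 to 0.64, limma adjusted p = 0.899). Of all genes, 11.7% showed no overlap in that comparison, so 1 such gene among 8 is near the background. The exercise difference was -0.10 in wild type and 0.19 in the knockout, with groups that overlapped (adjusted p = 0.948 and 0.836).

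Dusp5 encodes a nuclear phosphatase selective for ERK. In wild type it read 5.11, 4.89 and 5.13 at rest and 4.73, 5.42 and 5.25 after exercise. Exercised replicate 1 was thus the lowest and exercised replicate 2 the highest of all 12 arrays. The knockout had 5.19, 4.92 and 5.14 at rest and 4.96, 4.98 and 4.90 after exercise, which overlap. The exercise difference was 0.09 in wild type (SE 0.16, adjusted p = 0.952) and -0.14 in the knockout (SE 0.16, adjusted p = 0.885).

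Of the cytoplasmic class, Dusp6 is the ERK-induced feedback phosphatase. Wild-type muscle gave 7.13, 7.39 and 7.50 at rest and 7.19, 7.13 and 7.31 after exercise. Knockout muscle gave 7.53, 7.14 and 7.37 at rest and 6.80, 7.16 and 6.79 after exercise. Replicates 1 and 3 of the knockout exercised group were the 2 lowest of the 12 arrays, and replicate 2 overlapped with the sedentary range. The difference with exercise was -0.43 in the knockout (SE 0.13, 95% interval -0.72 to -0.14, unadjusted p = 0.00611, limma adjusted p = 0.282). It was -0.13 in wild type (SE 0.13, adjusted p = 0.889). Averaged over genotypes it was -0.28 (SE 0.10, adjusted p = 0.220). The difference between the genotypes in the exercise effect was -0.30 (95% interval -0.70 to 0.11, adjusted p = 0.997).

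In the knockout, Dusp6 was the 1 gene of the 8 with an unadjusted p under 0.05 after exercise, which 8.93% of all genes also reached. None of the 8 had knockout groups without overlap, as 13.9% of all genes did. After adjustment 0.276% of all genes were called there. Dusp6 was likewise lower in knockout than in wild-type exercised muscle, by -0.29 (SE 0.13, 95% interval -0.58 to -0.0040, limma adjusted p = 0.750), a comparison in which an unadjusted p under 0.05 was given to 6.58% of all genes. This comparison shares its 3 knockout exercised arrays with the exercise comparison in the knockout. At rest its genotype difference was 0.0060 (SE 0.13).

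Several cell marker lists also differed between the knockout groups. The mean level of 12 endothelial markers, all of which passed the filter, lay at -0.19 to -0.02 from its 12-array mean in knockout exercised and at 0.07 to 0.12 in knockout sedentary muscle. It was -0.19, -0.02 and -0.18 in exercised replicates 1, 2 and 3, of which 1 and 3 were also those with low Dusp6. For 10 smooth muscle and pericyte markers, of 10 on the list, the ranges were -0.20 to -0.09 and 0.07 to 0.18. For 8 of 8 tendon markers they were -0.25 to -0.01 and 0.0013 to 0.21. In exercised replicates 1, 2 and 3 the smooth muscle and pericyte list read -0.202, -0.090 and -0.085, and the tendon list -0.012, -0.200 and -0.254. The macrophage and leukocyte list read -0.122, -0.076 and -0.046. The fibroblast and matrix list read -0.213, -0.160 and -0.231, and was thus also lower in replicates 1 and 3. For the mean of 12 of 12 fibroblast and matrix markers the groups overlapped narrowly, at -0.2314 to -0.1599 and -0.1609 to 0.8608 (median log2 fold change -0.42). They also overlapped for the mean of 11 of 12 macrophage and leukocyte markers, at -0.12 to -0.05 and -0.20 to 0.28 (median -0.18). Between knockout and wild-type exercised muscle these 2 lists did not overlap, with wild-type values of -0.08 to 0.14 and -0.03 to 0.11. Every marker of these lists that was on the array passed the filter. With exercise averaged over genotypes, limma called 2 endothelial genes as lower, the VEGF receptor gene Kdr (-0.80) and the junctional cadherin gene Cdh5 (-0.28), and 1 pericyte gene, Notch3 (-0.46). Of all genes, 1.6% were called there. Other markers were higher, 2 of 12 on the endothelial list, such as Flt1 (0.18), and 3 of 10 on the smooth muscle and pericyte list, such as Cnn1 (0.25). In whole muscle, fewer cells of a type and less RNA per cell cannot be told apart. The part of these cells in the Dusp6 value was not tested.

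Dusp7 encodes the other ERK-selective cytoplasmic phosphatase of the set. Wild-type values were 6.97, 6.71 and 7.40 at rest and 6.53, 6.82 and 7.16 after exercise, and knockout values 6.75, 6.85 and 6.98, then 6.53, 6.58 and 6.95. All 4 groups overlapped with each other. The exercise difference was -0.19 in wild type (SE 0.18, adjusted p = 0.878) and -0.17 in the knockout (SE 0.18, adjusted p = 0.862). The interval of the difference between these effects ran from -0.53 to 0.56.

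Of the class selective for JNK and p38, Dusp10 had the largest span between group means of the 8 genes. Wild-type muscle read 7.78, 8.43 and 7.86 at rest and 7.08, 7.61 and 7.60 after exercise. Knockout muscle read 7.24, 7.64 and 7.47 at rest and 6.67, 7.21 and 7.44 after exercise. The wild-type sedentary arrays were the 3 highest of the 12, and knockout exercised replicate 1 was the lowest. Means ± SD (n = 3) at rest and after exercise were 8.02 ± 0.36 and 7.43 ± 0.30 for wild type, and 7.45 ± 0.20 and 7.11 ± 0.39 for the knockout. The means from high to low were in the order wild-type sedentary, knockout sedentary, wild-type exercised, knockout exercised, of which only the first was separate from its neighbour in every array.

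After exercise Dusp10 differed by -0.59 in wild type, a level 1.51-fold lower (SE 0.21, 95% interval -1.04 to -0.15, unadjusted p = 0.0125, limma adjusted p = 0.386). The comparison had 0.567% of all genes called, 8.21% with an unadjusted p under 0.05 and 12.9% without overlap. Dusp10 was the 1 of the 8 that met either of the last criteria. In the knockout the difference was -0.34 (SE 0.21, adjusted p = 0.712), with overlap, and -0.13 without knockout exercised replicate 1 and -0.51 without knockout exercised replicate 3. The averaged effect was -0.47, a level 1.38-fold lower (SE 0.15, unadjusted p = 0.00644, limma adjusted p = 0.170). The exercise effects of the genotypes differed by 0.25, with a 95% interval from -0.38 to 0.88 (adjusted p = 0.997). With 1 array left out this difference ranged from 0.05, without wild-type sedentary replicate 2, to 0.47, without knockout exercised replicate 1.

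At rest Dusp10 was lower in the knockout than in wild type by -0.58, a level 1.49-fold lower (SE 0.21, 95% interval -1.02 to -0.13, unadjusted p = 0.0149, limma adjusted p = 0.502). Of all genes, 0.138% were called in that comparison, 7.7% had p under 0.05 before adjustment and 13.1% showed no overlap. Dusp10 alone of the 8 met the last 2 criteria. The exercise comparison in wild type and the genotype comparison at rest share the 3 wild-type sedentary arrays. Without wild-type sedentary replicate 2, the highest array, they were -0.39 (adjusted p = 0.644) and -0.37 (adjusted p = 0.714). After exercise the genotype difference was -0.32 (SE 0.21, adjusted p = 0.899), and 0.175% of all genes were called there. It was -0.11 without knockout exercised replicate 1 and -0.50 without wild-type exercised replicate 1. Averaged over conditions it was -0.45 (SE 0.15, unadjusted p = 0.00827, limma adjusted p = 0.286), where 0.546% of all genes were called and 9.36% had p under 0.05 before adjustment.

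Beside the values of Dusp10, the mean of the endothelial markers lay at -0.05 to -0.03 in wild-type exercised and 0.04 to 0.11 in wild-type sedentary muscle, without overlap. Of the 12 endothelial markers, 5 were higher after exercise in wild type. Kdr differed by -0.76 there, beside a list median of -0.06. The mean of the 6 satellite cell markers, of 6 on the list, lay at -0.11 to -0.0039 after exercise and 0.06 to 0.12 at rest, with 2 of the 6 higher after exercise. The 12 fibroblast and matrix markers were separate in the opposite direction, at -0.0759 to 0.14 after exercise and -0.16 to -0.0848 at rest. At rest the mean of every marker list overlapped between knockout and wild-type arrays, but several lists were mostly higher in the knockout. These included 11 of 12 fibroblast and matrix markers (median difference 0.29) and 9 of 11 macrophage and leukocyte markers (0.13). They also included 7 of 7 tested Schwann cell and nerve markers (0.33) and 5 of 6 tested adipocyte markers (0.33). The median was lower in the knockout for satellite cell (-0.05), skeletal muscle (-0.02) and red blood cell (-0.05) lists. The part of these cells in the exercise value and in the genotype value at rest was not tested.

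Dusp8 encodes a phosphatase of JNK and p38 that is known from brain and heart. It had the smallest spread within groups of the 8 genes. Wild-type arrays gave 7.09, 7.04 and 6.73 at rest and 6.86, 6.84 and 6.84 after exercise. Knockout arrays gave 6.80, 6.86 and 6.75, then 6.71, 6.99 and 6.84, and the groups overlapped in both genotypes. The exercise differences were -0.11 (SE 0.11, adjusted p = 0.890) and 0.04 (SE 0.11, adjusted p = 0.957). Their 95% intervals ran from -0.34 to 0.13 and from -0.20 to 0.28, the narrowest of the set.

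Dusp16 encodes a JNK-selective phosphatase that moves between nucleus and cytoplasm. At rest the arrays read 7.11, 7.14 and 7.24 for wild type and 7.02, 7.18 and 7.22 for the knockout. After exercise they read 7.12, 7.29 and 7.29, and 7.14, 7.66 and 7.31. Knockout exercised replicate 2 was the highest array, and the groups overlapped. The exercise difference was 0.07 in wild type (SE 0.12, adjusted p = 0.947) and 0.23 in the knockout (SE 0.12, 95% interval -0.04 to 0.50, adjusted p = 0.647).

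**Figure D3:**
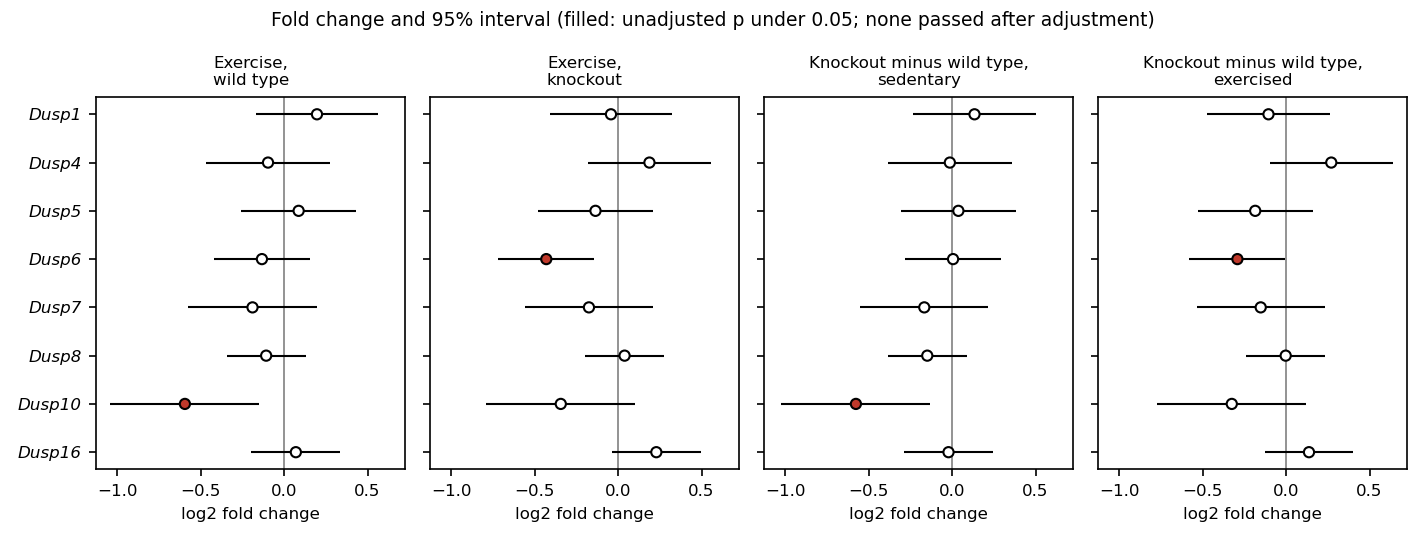
Log2 fold change (points) and 95% interval (lines) of the 8 genes for exercise in each genotype and for knockout against wild type in each condition, n = 3 arrays per group; filled points have an unadjusted limma p under 0.05. Filled points are Dusp10 in 2 panels and Dusp6 in 2 panels, all below 0, and none passed after adjustment.

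Whether the exercise response of these genes depends on REDD1 was tested by the difference of exercise effects. For that difference, 0% of all 13747 genes were called by limma, and 0 by analysis of variance. An unadjusted p under 0.05 was given to 4.51% of all genes and to 0 of the 8. The largest differences, knockout minus wild type, were -0.30 for Dusp6 and 0.28 for Dusp4 (95% interval -0.24 to 0.81). The adjusted p was at least 0.997 for each of the 8.

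Some arrays lay on 1 side of the 12-array mean for most of these genes, but the share of all genes on that side was not computed. Knockout exercised replicate 1 lay below the 12-array mean for 7 of the 8 genes, and was the lowest array for 3 of them. Its average over the 8 genes was -0.24, with Dusp10 at -0.83. Wild-type exercised replicate 1 was below the mean for 7 of the 8 as well, though Dusp8 was at -0.0036 and Dusp6 at -0.01. Wild-type sedentary replicate 3 was above the mean for all but 1 gene, by 0.17 on average. The 2 other knockout exercised arrays averaged 0.06 and -0.08, so the arrays of that group differed in direction.

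**Figure D4:**
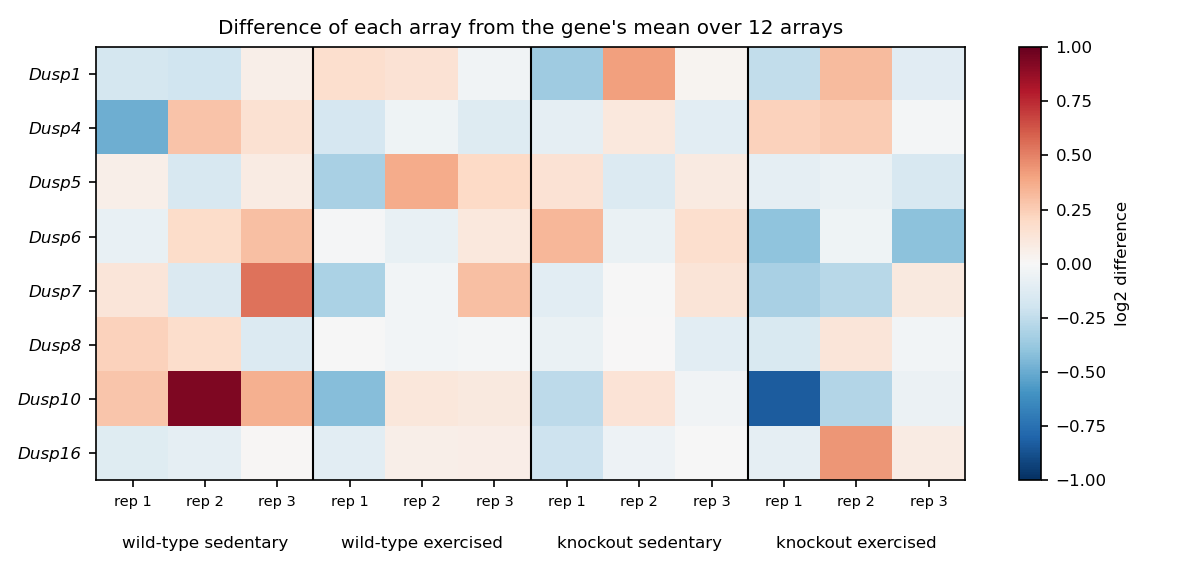
Difference of each array from the gene's own mean over 12 arrays, on the log2 scale (red above, blue below), for the 8 genes and the 12 arrays in their groups. The strongest red is Dusp10 in wild-type sedentary replicate 2 and the strongest blue Dusp10 in knockout exercised replicate 1, and no group is of 1 colour in all genes.

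Some genes of the wider pathway were called. Among 22 tested ERK feedback and target genes, of 24 on the list, averaged exercise gave 2 higher and 1 lower, where 1.6% of all genes were called. Errfi1, an inhibitor of the EGF receptor, was higher by 0.71 (SE 0.10, limma adjusted p = 0.00164), and Hbegf, an EGF receptor ligand, by 0.61 (SE 0.11, adjusted p = 0.00860). For averaged exercise both were called with any 1 of the 12 arrays left out. Spry2, a feedback inhibitor of ERK signalling, was lower by -0.36 (SE 0.08, adjusted p = 0.0275), a call kept in 3 of 12 such fits. The list's median was 0.03. Fos, the immediate-early transcription factor gene, was 1.07 higher and did not pass (SE 0.31, adjusted p = 0.117).

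Of 16 tested transcription factor genes downstream of JNK, p38 and stress, of 17 on the list, 2 were called higher and 1 lower with averaged exercise, beside 1.6% of all genes. Atf3, a stress-induced factor, was higher by 1.61 (SE 0.32, limma adjusted p = 0.0157), and not called without wild-type sedentary replicate 1 (adjusted p = 0.0550). Crem, a CRE-binding factor gene, was higher by 0.32 (adjusted p = 0.0451), and was not called with any 1 array left out. Elk3, a repressor partner of serum response factor, was lower by -0.53 (SE 0.11, adjusted p = 0.0263), a call kept in 4 of 12 such fits. The list's median was -0.04. In wild type alone, Junb, an AP-1 subunit gene, was higher by 0.98 (SE 0.20, adjusted p = 0.0410), a call kept in 3 of 12 fits. Its difference in the knockout was 0.01 (adjusted p = 0.996). The exercise effects of Junb were not called as different between genotypes, where the smallest limma adjusted p of any gene was 0.633. Errfi1 was higher in wild type by 0.79 (adjusted p = 0.0203), a call kept in 8 of 12 fits, and its difference in the knockout was 0.64 (adjusted p = 0.100). No gene of these lists was called in the knockout alone or in a genotype comparison.

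Among genes of the kinase cascades, calls were near the share over all genes. Of 16 tested ERK cascade genes, from 25 on the list, 0 were called and their median was -0.0085 with averaged exercise. Of 32 tested JNK and p38 cascade genes, from 37, 1 was called, beside 1.6% of all genes. It was Tab1, an adaptor of the kinase TAK1 (-0.34, SE 0.08, limma adjusted p = 0.0421, kept in 2 of 12 fits with an array left out). Gadd45g, which binds the p38 activator MEKK4, was 0.72 higher and did not pass (SE 0.18, adjusted p = 0.0670). Other phosphatases gave no calls. These were 15 tested atypical dual-specificity phosphatases (median 0.05) and 7 tested phosphatases of other families that act on MAP kinases (median 0.11). Of the remaining relatives of the 8, Dusp2 differed by 0.19 (adjusted p = 0.480) and Dusp9 by -0.12, and Styxl1 was below the filter.

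**Figure D5:**
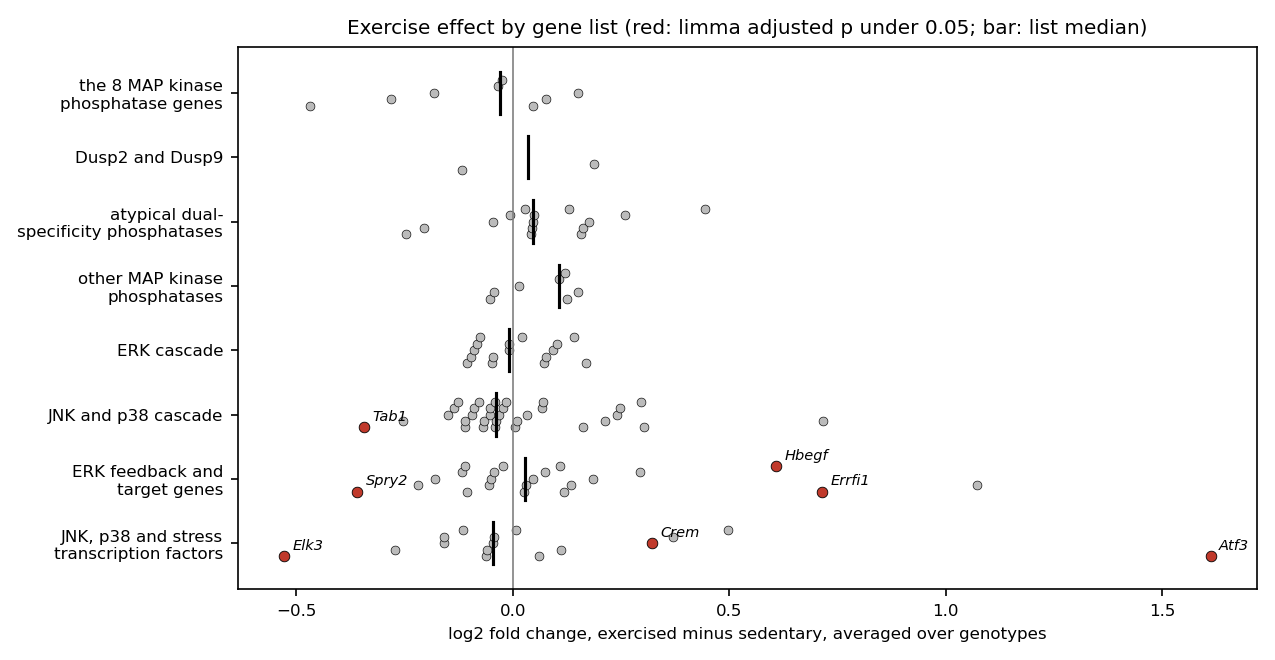
Log2 fold change with exercise, averaged over genotypes, of each tested gene (points) in the 8 phosphatase genes and 7 related lists, with the list median (bar); red points have a limma adjusted p under 0.05 and are named. The 8 phosphatase genes lie between -0.47 and 0.15 with none red, and the red points farthest from 0 are Atf3, Errfi1, Hbegf and Elk3.

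Among 12842 tested genes with an established name, the 3 with levels most like each phosphatase gene over the 12 arrays were found by Pearson's r, as a description. For Dusp10 they were the retinoic acid receptor gene Rara (0.926), the natriuretic peptide receptor gene Npr2 (0.897) and Nrros (0.876). With group means removed, r was 0.866, 0.897 and 0.740. For Dusp6 they were the exocyst gene Exoc1 (0.916), Dph2 (0.906) and Plekhg3 (0.897), and for Dusp16 Rnf13 (0.949), Shisa3 (0.893) and Foxn2 (0.892). For Dusp5 the first was Chrna1, the acetylcholine receptor subunit gene (0.890), for Dusp7 Zfp451 (0.894), for Dusp8 Fbxl5 (0.883), for Dusp4 Hkdc1 (0.833) and for Dusp1 Man1a2 (0.822). None of these genes was called for averaged exercise. Whether the arrays share a hybridisation batch or a scaling step is not given in the sources used here.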

How the data were processed

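Total RNA of 12 plantaris samples was labelled with a whole-transcript array kit, per the labels' protocols, and Partek is named without a version in the submitters' processing notes. The deposited table holds log2 values per row (0.357 to 13.9, read as log2 from this range); background correction, normalization and summarization are not given in the sources used here. Array medians were 4.52 to 4.60, and the number of arrays limits the precision. Of 41345 rows, 23521 had 1 symbol, 1814 several and 16010 none. The row with the highest mean stood for a gene. Genes above the table median (4.56) on at least 3 arrays were tested.

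Limma 3.58.1 in R 4.3.3 fitted 1 mean per group to all 12 arrays (lmFit, eBayes with an intensity trend, 8 residual degrees of freedom). From it came 7 two-sided contrasts, each adjusted by Benjamini-Hochberg over all genes tested. The fit was tested on simulated data. The samples' numbers are in accession order and pair nothing. Named were all 8 genes, every called gene of the pathway lists, up to 6 genes a list by smallest p, and the 3 genes most like each phosphatase gene. The 8 genes and all lists were chosen with earlier results of these data known. Alternatives were other moderation, filters, centring, quantile normalization, row averaging, array weights, fewer samples and each array left out. Motifs were searched in RefSeq windows (GRCm38.p6).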

Additional observations from a re-analysis of the deposited data

How the results depend on the processing

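None of the 8 genes was called under any of the 20 to 22 alternatives in which it was tested in a comparison. Dusp4, above the table median on 11 of 12 arrays, was not tested with the filter that asked for all 12. The lowest adjusted p was 0.104, for Dusp6 in averaged exercise without knockout exercised replicate 2, and the next 0.109, for Dusp10 in knockout against wild type averaged over conditions without wild-type exercised replicate 1. Dusp10 kept its direction in all 7 comparisons under every alternative tried, but not its size. Uncalled values changed sign in 48 of these fits. Not all were near 0 in the main fit, where knockout against wild type was -0.17 for Dusp7 at rest and 0.14 for Dusp16 after exercise. With array weights, the difference of exercise effects for Dusp7 was -0.0367, averaged exercise was -0.0009498 for Dusp4 and 0.0611 for Dusp5, and knockout against wild type was -0.0490 for Dusp6 at rest and 0.0111 for Dusp8 after exercise. At rest it was -0.00648 for Dusp6 with median centring and 0.00581 for Dusp16 with quantile normalization. With 1 array left out, exercise in wild type ranged from -0.331 to 0.0556 for Dusp4 and from -0.0574 to 0.291 for Dusp5. In the knockout it ranged from -0.233 to 0.148 for Dusp1 and from -0.0315 to 0.105 for Dusp8. The difference of these effects ranged from -0.171 to 0.174 for Dusp7. Averaged exercise ranged from -0.0179 to 0.172 for Dusp1, -0.0717 to 0.122 for Dusp4, -0.0964 to 0.0779 for Dusp5 and -0.0902 to 0.000838 for Dusp8. Knockout against wild type at rest ranged from -0.0554 to 0.325 for Dusp1, -0.248 to 0.139 for Dusp4, -0.0389 to 0.121 for Dusp5, -0.0981 to 0.112 for Dusp6, -0.324 to 0.0193 for Dusp7 and -0.0625 to 0.0393 for Dusp16. After exercise it ranged from -0.272 to 0.0123 for Dusp1, -0.303 to 0.00763 for Dusp7, -0.0727 to 0.0640 for Dusp8 and -0.00988 to 0.253 for Dusp16. Averaged over conditions it ranged from -0.0803 to 0.110 for Dusp1 and from -0.0155 to 0.116 for Dusp16. The cause of these changes was not tested.

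Counts over all genes varied more. Averaged exercise called 220 genes, 67 by analysis of variance and 348 with array weights. Exercise in wild type called 78, 12 by analysis of variance, 127 with array weights and 46 to 90 with an array left out. In the knockout it called 38, 24 without the trend, 0 by analysis of variance (1227 by limma's unadjusted p under 0.05), 83 with array weights, 25 with only the compared arrays and 16 to 71 with an array left out. Knockout against wild type called 75 on average over conditions, 42 without the trend, 23 by analysis of variance, 193 with array weights and 38 to 149 with an array left out. After exercise it called 24, 1 by analysis of variance, 89 with array weights, 13 with only the compared arrays and 5 to 40 with an array left out. At rest it called 19, 1 by analysis of variance and 6 to 27 with an array left out. Averaged exercise with an array left out called 144 to 220. No paired analysis was possible because the labels give no replicate numbers shared between groups.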

Other observations

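Over the 12 arrays, the 28 pairs among the 8 genes were compared by correlation with 100000 permutations. Arrays were permuted across all groups, so differences between group means enter r and p, which do not measure variation within a group alone. The strongest by Pearson's r was Dusp1 with Dusp16 (Pearson's r = 0.562, permutation p = 0.0513, adjusted p = 0.718; Spearman's rho = 0.469, permutation p = 0.127, adjusted p = 0.974). Without the 2 arrays farthest from the median of Dusp1, r was 0.676. By Spearman's rho the strongest was Dusp7 with Dusp10 (rho = 0.594, permutation p = 0.0458, adjusted p = 0.974; Pearson's r = 0.492, permutation p = 0.104, adjusted p = 0.718), with r = 0.480 without the 2 arrays farthest from the median of Dusp7. No pair passed after adjustment over the 28. The deposited table holds a further row for Dusp6, with values of 2.33 to 3.02, below the table median on every array, so it gave no second reading of that gene.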
